A study of Mus musculus with 18 samples.

Results

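Liver type 1 innate lymphoid cells (ILC1s) that expressed RARα403 were compared with liver ILC1s of control mice in 6 bulk libraries, 3 of each genotype, out of 18 libraries in the series. The members were all libraries that the labels give as liver ILC1s, and the fit used these 6 alone. The RARα403 mice had the genotype Ncr1-Cre with Rosa26-RARalpha403, and the control mice had Ncr1-Cre, so both carried the Cre recombinase that is driven by the gene of the activating receptor NKp46. All mice were C57BL/6 and 8 weeks old. Each library was made by SMART-seq, an amplification of full-length cDNA for small inputs, from 200 sorted cells that were CD3-, NK1.1+, NKp46+, CD49a+, CD49b low and IL-7R+. The other 12 libraries were spleen ILC1s and liver natural killer (NK) cells of the same genotypes. The title of the series asks whether ILC1s depend on retinoic acid receptors for their maintenance.

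ILC1s are lymphocytes without rearranged antigen receptors that stay in tissue and make interferon-γ, and the liver holds many of them. Retinoic acid, the active metabolite of vitamin A, binds nuclear receptors (RARα, RARβ and RARγ) that pair with retinoid X receptors on DNA and exchange corepressors for coactivators. RARα403 is a truncated RARα that lacks the end needed for ligand-dependent activation and acts as a dominant negative over all of these receptors. It is switched on by Cre only in cells that have made NKp46, so other liver cells keep their own receptors.

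The library labelled RARα403 1 differed from the other libraries of its genotype and is set apart below. Gt(ROSA)26Sor, a noncoding RNA transcribed from the Rosa26 locus, where the insert lies, had 65.0 CPM (counts per 1000000 of the scaled library size) in it, against 0.153 and 0 CPM in RARα403 libraries 2 and 3, and 129, 101 and 23.1 CPM in control libraries 1, 2 and 3. The annotated pseudogene Gm13394 had 3.06 CPM in it, against 106 and 105 CPM in RARα403 libraries 2 and 3, and 9.11, 7.03 and 7.11 CPM in the controls. By both transcripts the library labelled RARα403 1 thus lay with the controls in level. The spleen ILC1 library labelled RARα403 1 did too, with 56.4 CPM of Gt(ROSA)26Sor and 9.89 CPM of Gm13394. How many copies each mouse carried is not stated in the labels, and neither transcript settles the genotype. Gm13394 was chosen with earlier results of these data known, so its level is no independent sign of the genotype. Gt(ROSA)26Sor overlaps Thumpd3 and Gm13394 overlaps Cfap77, and whether the counting used strand is not stated, so both levels are uncertain. The library labelled RARα403 1 was also the only library among the 6 whose mean correlation with the control spleen ILC1 libraries (Pearson r = 0.854 across 14714 genes, which are not independent replicates) was higher than that with the control liver ILC1 libraries (0.849). Its mean correlation with the control liver NK libraries was higher still (0.869), while in control library 2 that value (0.881) also stood above the value for control liver ILC1s (0.879). List medians are therefore also given without the library labelled RARα403 1. The description codes of that library and of control library 1 open with 1. Both libraries also had the most genes with a count (17110 and 16853, against 14307 to 15476 in the others). The codes of libraries 2 and 3 of each genotype open with 2, and some values are given for these only. What the opening number stands for is not stated.

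The libraries held 6087298, 6686951 and 6809570 counts in RARα403 cells, and 7184888, 3452279 and 4549841 counts in control cells. The floor of each library was set at 3 counts, which came to 0.427 to 0.879 CPM and covers counting error only. All 13 markers of ILC1s fixed for the check were detected in all 6 libraries and summed to 6901 to 8863 CPM in RARα403 cells and 7263 to 9497 CPM in control cells. The sum includes the sort marker genes Ncr1, Klrb1c, Itga1 and Il7r, so the gate limits what it can show. Of the other markers, Cxcr6, Zfp683, Tnfsf10, Cd200r1, Gzmc and Inpp4b were lowest in the library labelled RARα403 1. Tbx21, Tmem176a and Tmem176b were not lowest there. Summed NK cell markers had 2216, 322 and 795 CPM in RARα403 cells and 269, 398 and 159 CPM in control cells. T cell markers summed to 414 to 661 CPM in RARα403 cells and 188 to 503 CPM in control cells, and B cell markers to 468 to 640 CPM in RARα403 cells and 435 to 803 CPM in control cells, with Ms4a1 at 0 throughout. Erythroid markers had 1141, 788 and 0 CPM in RARα403 cells and 2415, 0 and 0.222 CPM in control cells. Myeloid markers reached 323 CPM and hepatocyte markers 77.6 CPM in control library 1, against at most 110 and 18.7 CPM in the other 5 libraries, and S100a8 and S100a9 were at 0 in all 6. Xist, which is made from the inactive X chromosome, had 201 CPM in RARα403 library 2, 198 CPM in control library 3 and 0 in the other 4 libraries, so each genotype held both sexes.

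**Figure D1:**
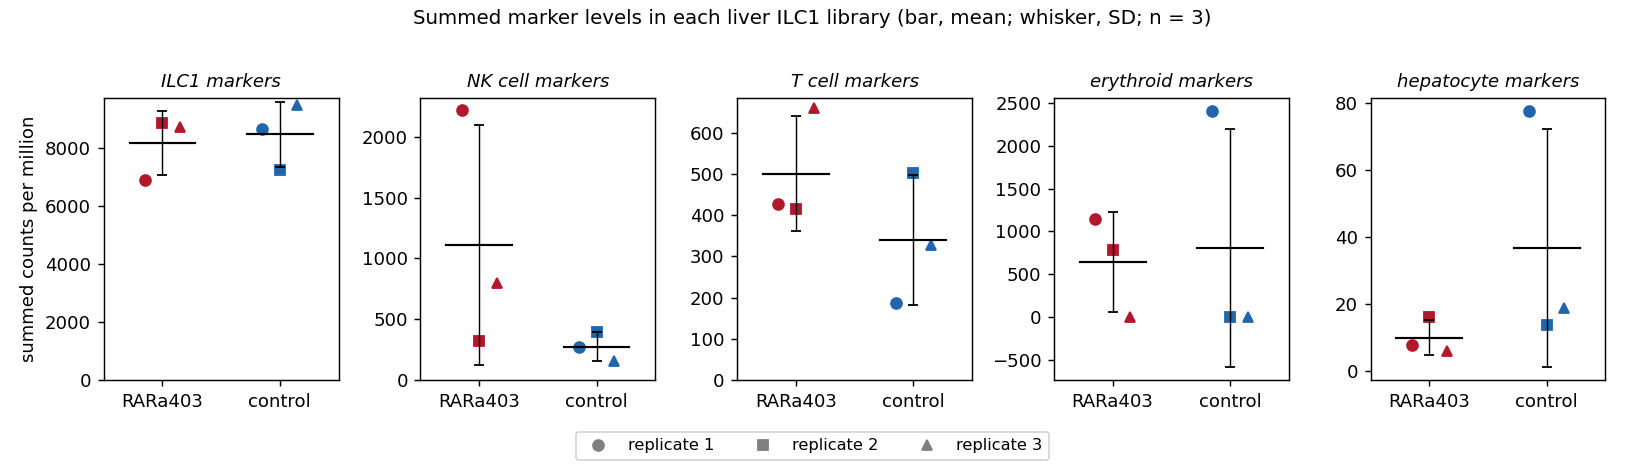
Summed marker levels in each liver ILC1 library, in CPM, RARα403 to the left of control; symbols are libraries, bars are means and whiskers are SD (n = 3). ILC1 markers, which include the genes of sort markers, lie between 6901 and 9497 CPM in all 6 libraries. NK cell markers reach 2216 CPM in the library labelled RARα403 1, and erythroid and hepatocyte markers peak in control library 1.

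Genes of cell division had lower values in RARα403 liver ILC1s than in control liver ILC1s. All 42 listed proliferation genes were tested, of which 38 had a fold change below 0 and 4 above it, the median log2 fold change was -1.37, and 18 were lower in all 3 RARα403 libraries than in any control library. Over all 11813 genes tested 50.4% were below 0 and 49.6% above, the median was -0.00, and 4.88% were lower without overlap in that way. No proliferation gene was higher without overlap, against 5.41% of all genes. No single gene passed edgeR's quasi-likelihood test at an adjusted p of 0.05 (0% of 11813 genes), while 4.12% had an unadjusted p under 0.05, so the values below are described and none is called changed by that test. DESeq2 called 33 genes (0.279% of those tested), 13 higher (0.11%) and 20 lower (0.169%) in RARα403 cells, and limma-voom called 0. Since it is not stated which libraries come from a shared animal, every p-value here reflects only how much libraries vary. In bulk samples a lower share of dividing cells and less of a transcript per cell cannot be told apart.

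Nusap1 (mm10 chromosome 2, 119618298 to 119651244), a spindle protein that bundles microtubules, had 10.2, 10.6 and 9.70 CPM in RARα403 libraries, against 138, 58.6 and 40.6 CPM in control libraries. The lowest control was well above the highest RARα403 library. The log2 fold change was -2.97 (SE 0.49; edgeR adjusted p = 0.874), and -2.96 without the library labelled RARα403 1. Cdk1 (chromosome 10, 69335146 to 69352938), the kinase that drives entry into mitosis, had 5.97, 9.49 and 9.41 CPM in RARα403 libraries, against 57.2, 35.7 and 37.8 CPM in control libraries. The groups did not overlap, with a log2 fold change of -2.39 (SE 0.41; edgeR adjusted p = 0.874) and -2.20 without that library. Ube2c (chromosome 2, 164769898 to 164778822), the ubiquitin-conjugating enzyme of the anaphase-promoting complex, had 0, 0 and 0.724 CPM in RARα403 libraries, against 51.6, 19.0 and 24.9 CPM in control libraries. It was at 0 or 5 counts in RARα403 cells and at 65 counts or more in control cells, and overlaps Tnnc2 in the annotation. Spc25 (chromosome 2, 69193895 to 69206194), a subunit of the NDC80 complex at the kinetochore, had 9.68, 8.73 and 10.7 CPM in RARα403 libraries, against 63.7, 40.4 and 30.0 CPM in control libraries (log2 fold change -2.20, SE 0.41; edgeR adjusted p = 0.897). By DESeq2 the adjusted p was 9.81e-06 for Nusap1, 0.000763 for Cdk1, 9.51e-08 for Ube2c and 0.0034 for Spc25.

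Other genes of mitosis lay the same way, with less even values. Cep55, which acts in the final cut between daughter cells, had 2.58, 1.68 and 0.869 CPM in RARα403 libraries, against 26.6, 11.7 and 19.1 CPM in control libraries. H2afx, a histone variant that is phosphorylated at DNA breaks, had 50.5, 44.6 and 55.8 CPM in RARα403 libraries, against 177, 111 and 118 CPM in control libraries, without overlap. Top2a, the topoisomerase of dividing cells, had 3.06, 49.0 and 29.4 CPM in RARα403 libraries, against 165, 137 and 94.4 CPM in control libraries, so its lowest value was in the library labelled RARα403 1. Mki67, which encodes the proliferation antigen Ki-67, followed Top2a in this, with 0.806, 19.6 and 13.0 CPM in RARα403 libraries, against 91.6, 30.2 and 38.6 CPM in control libraries. The cyclin gene Ccnb2 had 0, 2.14 and 5.07 CPM in RARα403 libraries and 56.0, 31.9 and 15.5 CPM in control libraries.

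Several genes of DNA replication had fold changes nearer 0. The helicase subunits Mcm2, Mcm3, Mcm4, Mcm5, Mcm6 and Mcm7 had log2 fold changes of 0.29, 0.37, -0.01, -0.54, -0.25 and -0.03, and the groups overlapped for each of them. Mcm4, for example, had 143, 240 and 213 CPM in RARα403 libraries and 165, 213 and 221 CPM in control libraries. Without the library labelled RARα403 1 the values of Mcm4, Mcm6 and Mcm7 were 0.18, 0.02 and 0.21. Pcna, the sliding clamp of DNA polymerase, had a log2 fold change of -0.25 (SE 0.26) and overlapping groups. Of the genes of nucleotide synthesis, Rrm1 and Tyms had -0.17 and -0.18, but Rrm2 and Tk1 had -2.05 and -1.02, each with overlapping groups. The 4 list members with a fold change above 0 were Mcm2, Mcm3, the histone gene H2afz and the cyclin gene Ccne2, and H2afz had -0.01 without the library labelled RARα403 1. The division into mitotic and replication genes was made after the values were seen.

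The median of the proliferation genes stayed below 0, between -1.12 and -1.58, with each library left out in turn. Without the library labelled RARα403 1 the median was -1.12 and 18 of 42 genes were lower without overlap, against 8.63% of all genes tested in that fit, and 2 (Mcm3 and Ccne2) were higher, against 9.64%. Without control library 1, which had the highest values of most of these genes and the highest erythroid, myeloid and hepatocyte markers, the median was -1.14 and 18 genes were lower without overlap, against 9.42% of all genes. With libraries 2 and 3 of each genotype only the median was -0.79, with 18 genes lower and 15.1% of all genes. The part of those other cells in the values was not tested.

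**Figure D2:**
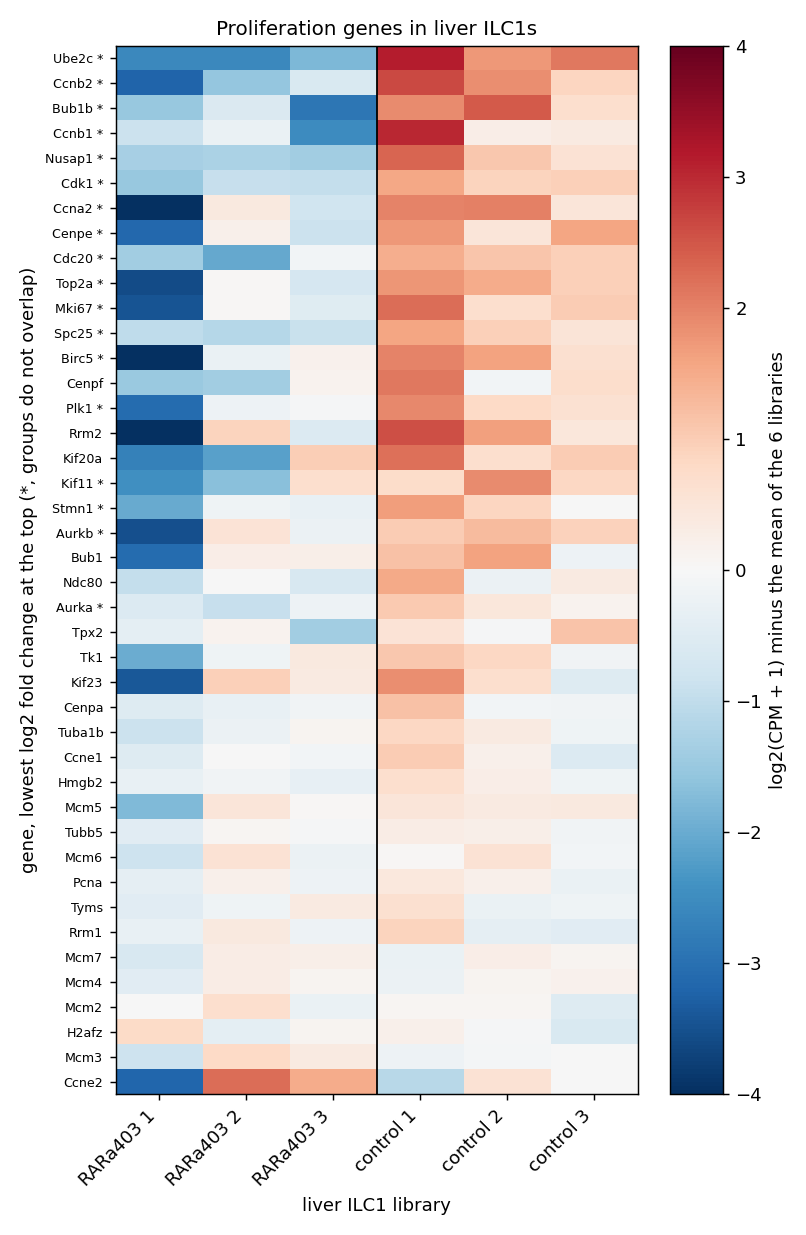
Levels of the 42 tested proliferation genes in each liver ILC1 library as log2(CPM + 1) minus the gene's mean over the 6 libraries, with RARα403 libraries left of the line and control libraries right of it; genes run from the lowest log2 fold change at the top, colours are capped at the ends of the scale, and a star marks the 18 genes whose groups do not overlap. The upper rows are blue in RARα403 and red in control libraries, while the Mcm genes near the bottom show no such split.

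Promoters of 4 of these genes are shown because their transcripts had lower values together and because many mitotic genes carry a cell cycle homology region, with the letters TTTGAA, through which they are repressed outside the dividing state. The sequences run from 250 bases before to 50 bases after the annotated start (RefSeq, GRCm38.p6), and capitals mark TTTGAA on either strand. The Ube2c promoter spans chr2:164769679-164769978 on the plus strand, and on the minus strand lie that of Cdk1 (chr10:69352863-69353162), of Spc25 (chr2:69206164-69206463) and of Top2a (chr11:99024140-99024439).
Ube2c: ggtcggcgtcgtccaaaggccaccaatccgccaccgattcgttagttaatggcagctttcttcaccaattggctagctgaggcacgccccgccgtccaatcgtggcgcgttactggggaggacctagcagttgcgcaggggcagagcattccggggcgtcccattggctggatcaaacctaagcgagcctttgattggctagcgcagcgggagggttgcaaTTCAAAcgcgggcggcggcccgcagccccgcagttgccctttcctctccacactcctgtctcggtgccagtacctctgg
Cdk1: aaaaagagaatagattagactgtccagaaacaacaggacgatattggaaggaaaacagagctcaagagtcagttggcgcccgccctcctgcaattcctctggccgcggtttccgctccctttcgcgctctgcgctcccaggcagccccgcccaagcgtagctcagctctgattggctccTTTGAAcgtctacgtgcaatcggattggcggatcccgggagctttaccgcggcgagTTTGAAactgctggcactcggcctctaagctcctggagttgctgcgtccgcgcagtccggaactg
Spc25: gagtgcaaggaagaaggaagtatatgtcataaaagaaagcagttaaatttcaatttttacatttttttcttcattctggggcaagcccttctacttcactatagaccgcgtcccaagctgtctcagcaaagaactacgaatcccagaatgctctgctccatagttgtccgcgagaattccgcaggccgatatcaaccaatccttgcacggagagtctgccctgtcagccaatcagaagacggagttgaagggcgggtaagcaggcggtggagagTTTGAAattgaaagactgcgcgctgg
Top2a: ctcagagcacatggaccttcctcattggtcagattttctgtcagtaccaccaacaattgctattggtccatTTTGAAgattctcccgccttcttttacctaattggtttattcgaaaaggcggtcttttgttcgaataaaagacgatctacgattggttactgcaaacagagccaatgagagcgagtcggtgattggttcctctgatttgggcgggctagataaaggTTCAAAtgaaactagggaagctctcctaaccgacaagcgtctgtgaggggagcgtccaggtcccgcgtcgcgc
The motif begins 29 bases before the start in Ube2c, 71 and 15 bases before it in Cdk1, 24 bases after it in Spc25, and 179 and 23 bases before it in Top2a. Of 34 proliferation genes matched to a RefSeq promoter, 17 held TTTGAA on either strand, as did 11 of the 15 matched genes that were lower without overlap. The share was 14.2% of 8591 matched genes among those tested and 20.2% of all 27025 genes in the promoter table. The motif CCAAT, read on both strands and able to share an end base with TTTGAA, was held by 27 of the 34 genes and by 43.3% of the matched genes among those tested (41.1% of all 27025 genes in the promoter table). These matches describe letters in a window and are no evidence of a bound factor.

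The same genes were set beside their values in the other populations, which carry the same genotypes. In a fit of all 18 libraries the median over the 42 proliferation genes was -1.36 in liver ILC1s, 1.37 in spleen ILC1s and 1.35 in liver NK cells, each as RARα403 over control. Fold changes were above 0 for 40 of 42 genes in spleen ILC1s and 36 of 42 in liver NK cells, but without overlap in only 3 genes each, against 4.12% of all genes in spleen ILC1s and 3.77% in liver NK cells. Liver NK RARα403 library 1 stood apart from the rest of the series, and without it the NK median was 1.34, with 42 of 42 genes above 0 and 6 without overlap, against 8.85% of all genes. Nusap1 had 134, 15.6 and 14.8 CPM in RARα403 spleen ILC1s and 36.1, 0 and 3.00 CPM in control spleen ILC1s, so the spleen values of library 1 were highest in both genotypes. No gene passed edgeR's test of the difference in effect between liver ILC1s and spleen ILC1s or liver NK cells (0 of 14714 each; 397 and 913 with an unadjusted p under 0.05), and DESeq2 called 18 and 43. The adjusted p of Cdk1 by edgeR was 1.00 against spleen ILC1s and 0.798 against liver NK cells.

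The Gimap genes, which encode small GTPases of the immunity-associated family that act in lymphocyte survival and lie side by side on chromosome 6, formed the most even group of lower values. All 8 listed members were tested and had a fold change below 0, with a median of -0.70. Of these 6 were lower without overlap in RARα403 cells (4.88% of all genes). Gimap4 (chromosome 6, 48684549 to 48692060) had 1368, 2627 and 1787 CPM in RARα403 libraries, against 3217, 3645 and 3999 CPM in control libraries. Its groups did not overlap (log2 fold change -0.91, SE 0.23; edgeR adjusted p = 0.985; DESeq2 adjusted p = 0.0285). Gimap9 (chromosome 6, 48676129 to 48679114) had 197, 286 and 224 CPM in RARα403 libraries, against 383, 430 and 411 CPM in control libraries (log2 fold change -0.79, SE 0.19; edgeR adjusted p = 0.985). Gimap7 had the lowest log2 fold change of the family (-1.13), with 173, 573 and 404 CPM in RARα403 libraries, against 851, 761 and 906 CPM in control libraries. Gimap3 (log2 fold change -0.38) and Gimap8 (-0.13) were the 2 members whose groups overlapped. Without the library labelled RARα403 1 the median was -0.56 and 6 of 8 were lower without overlap (8.63% of all genes). In the fit of all 18 libraries the median was -0.70 in liver ILC1s, -0.63 in spleen ILC1s and -1.13 in liver NK cells, with 6, 8 and 8 of the 8 members lower without overlap, against 4.43%, 4.87% and 4.72% of all genes. Without liver NK RARα403 library 1 the NK median was -0.89, with 8 of 8 lower and 7.04% of all genes.

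**Figure D3:**
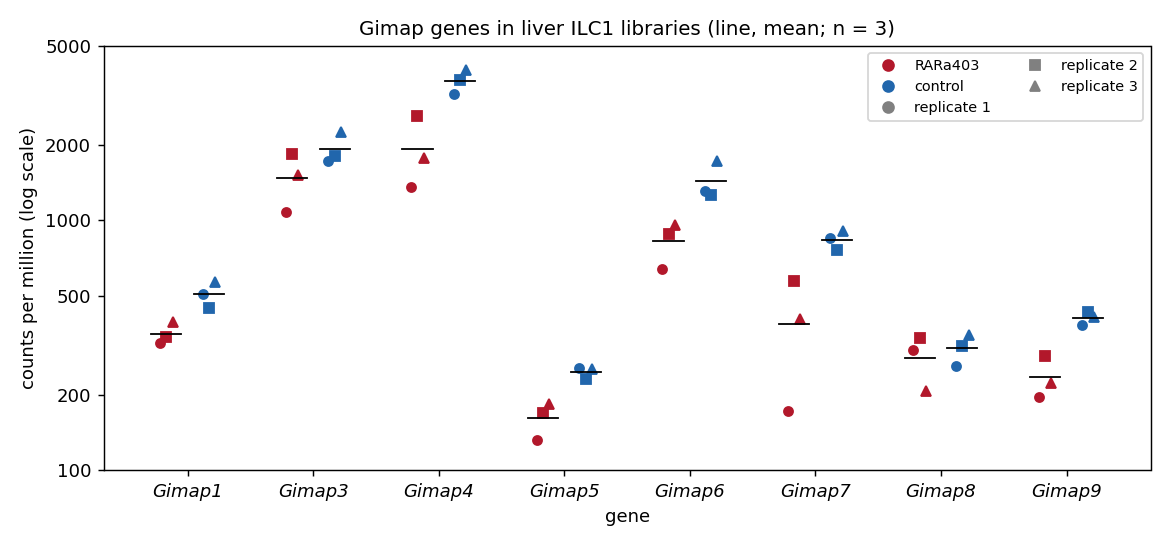
Levels of the 8 Gimap genes in each liver ILC1 library, in CPM on a log scale, RARα403 left of control for each gene; symbols are libraries and lines are means (n = 3). For 6 genes every RARα403 library lies below every control library, while Gimap3 and Gimap8 overlap.

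Several cytokine and chemokine transcripts also had lower values in RARα403 cells. Of 21 listed cytokine and chemokine genes 16 were tested, and 14 of these had a fold change below 0, with a median of -0.72, and 4 were lower without overlap (4.88% of all genes), namely Ccl3, Ccl4, Xcl1 and Tnfsf10. Without the library labelled RARα403 1 the median was -0.78 over 17 genes tested, with 5 lower without overlap (8.63% of all genes). Ccl4, an inflammatory chemokine that attracts monocytes and T cells, had 108, 167 and 67.8 CPM in RARα403 libraries, against 1355, 325 and 269 CPM in control libraries (log2 fold change -2.51, SE 0.64; edgeR adjusted p = 0.985). Ccl3, a related inflammatory chemokine, had 24.3, 44.2 and 13.8 CPM in RARα403 libraries, against 232, 55.4 and 90.0 CPM in control libraries. For both genes control library 1 was far above the other controls, which still lay above every RARα403 library. Xcl1, which draws cross-presenting dendritic cells, had 213, 278 and 233 CPM in RARα403 libraries, against 929, 314 and 385 CPM in control libraries. Tnfsf10, which encodes the death ligand TRAIL, had 118, 214 and 191 CPM in RARα403 libraries, against 237, 219 and 319 CPM in control libraries, where the nearest values of the groups were close. Ifng, the defining cytokine of these cells, had 87.7, 198 and 168 CPM in RARα403 libraries and 102, 258 and 99.3 CPM in control libraries and overlapped (log2 fold change -0.01, SE 0.44, and 0.27 without the library labelled RARα403 1). Ccl5, the most abundant chemokine of the list, had 2130, 1646 and 1657 CPM in RARα403 libraries and 2390, 1624 and 2051 CPM in control libraries, with overlap (log2 fold change -0.16, SE 0.18). The median of the list was -0.39 without control library 1 and -0.33 without control library 3.

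Among the genes with higher values in RARα403 cells were receptors for cytokines that maintain and activate ILC1s. Il7r, which encodes the interleukin-7 receptor, had 926, 436 and 925 CPM in RARα403 libraries, against 225, 281 and 412 CPM in control libraries (log2 fold change 1.32, SE 0.33; edgeR adjusted p = 0.985; DESeq2 adjusted p = 0.0144). The highest control lay just below the lowest RARα403 library, and the sort on the IL-7R protein limits what this transcript can show. Il18r1, a chain of the interleukin-18 receptor, had 594, 307 and 363 CPM in RARα403 libraries, against 191, 159 and 96.4 CPM in control libraries, without overlap. Its log2 fold change was 1.50 (SE 0.33; edgeR adjusted p = 0.985), and 1.17 without the library labelled RARα403 1. Il18rap, the other chain, had 776, 467 and 611 CPM in RARα403 libraries, against 313, 388 and 180 CPM in control libraries, again without overlap. Of 33 tested (35 listed) cytokine receptor and signalling genes 18 lay above 0 and 15 below. The median was 0.02, so the list as a whole was centred on no difference. In it 4 genes were higher and 2 lower without overlap (5.41% and 4.88% of all genes).

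Nebl (chromosome 2, 17343909 to 17731464), which encodes an actin-binding protein of the nebulin family, had the smallest p of all genes tested by edgeR. It had 235, 154 and 165 CPM in RARα403 libraries, against 64.2, 42.2 and 41.8 CPM in control libraries. The groups did not overlap (log2 fold change 1.90, SE 0.28; edgeR adjusted p = 0.874; DESeq2 adjusted p = 2.26e-06), and the value was 1.69 without the library labelled RARα403 1. Tsc22d3, which encodes the glucocorticoid-induced leucine zipper protein, had 359, 406 and 814 CPM in RARα403 libraries, against 207, 197 and 164 CPM in control libraries (log2 fold change 1.47, SE 0.32; edgeR adjusted p = 0.985). Plec, Klhl6, Kifc3 and Nckap1, a cytoskeletal linker, a B cell-associated adaptor of ubiquitin ligases, a kinesin motor and an actin regulator, were also higher without overlap, with log2 fold changes of 0.96, 0.93, 1.82 and 3.55. Dmrta1, Tlr3 and Napepld had 0 counts in all control libraries and were detected in every RARα403 library. Dmrta1, a gene of the doublesex-related family, had 48.7, 7.50 and 18.7 CPM in RARα403 libraries and was at least 38.0-fold higher with controls set to the floor of 3 counts in each library. Tlr3, the endosomal sensor of double-stranded RNA, had 18.5, 11.6 and 4.78 CPM in RARα403 libraries (at least 17.7-fold higher), and Napepld, a phospholipase, had 5.64, 5.66 and 15.6 CPM (at least 13.7-fold higher).

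The lower genes that belong to none of the groups above were of several kinds. Bspry, a B-box and SPRY domain protein, had 4.03, 11.2 and 11.4 CPM in RARα403 libraries, against 52.8, 42.5 and 56.9 CPM in control libraries (log2 fold change -2.51, SE 0.47; edgeR adjusted p = 0.897). Naip5, the inflammasome sensor of flagellin, had 18.7, 13.6 and 16.2 CPM in RARα403 libraries, against 52.7, 47.2 and 52.2 CPM in control libraries. Both were low in all RARα403 libraries and even among controls. Naip5 has near-identical neighbours in its family, so the split of its reads is uncertain. Gadd45g, a stress-response gene, had 22.3, 42.1 and 40.0 CPM in RARα403 libraries, against 109, 82.9 and 93.1 CPM in control libraries, and Prmt6, an arginine methyltransferase, had 11.9, 11.6 and 13.5 CPM in RARα403 libraries, against 35.9, 36.3 and 37.8 CPM in control libraries. Irf8, a transcription factor of NK cell and myeloid development, had 87.7, 94.0 and 96.7 CPM in RARα403 libraries, against 298, 202 and 143 CPM in control libraries (log2 fold change -1.21, SE 0.28; edgeR adjusted p = 0.985). These groups did not overlap either.

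**Figure D4:**
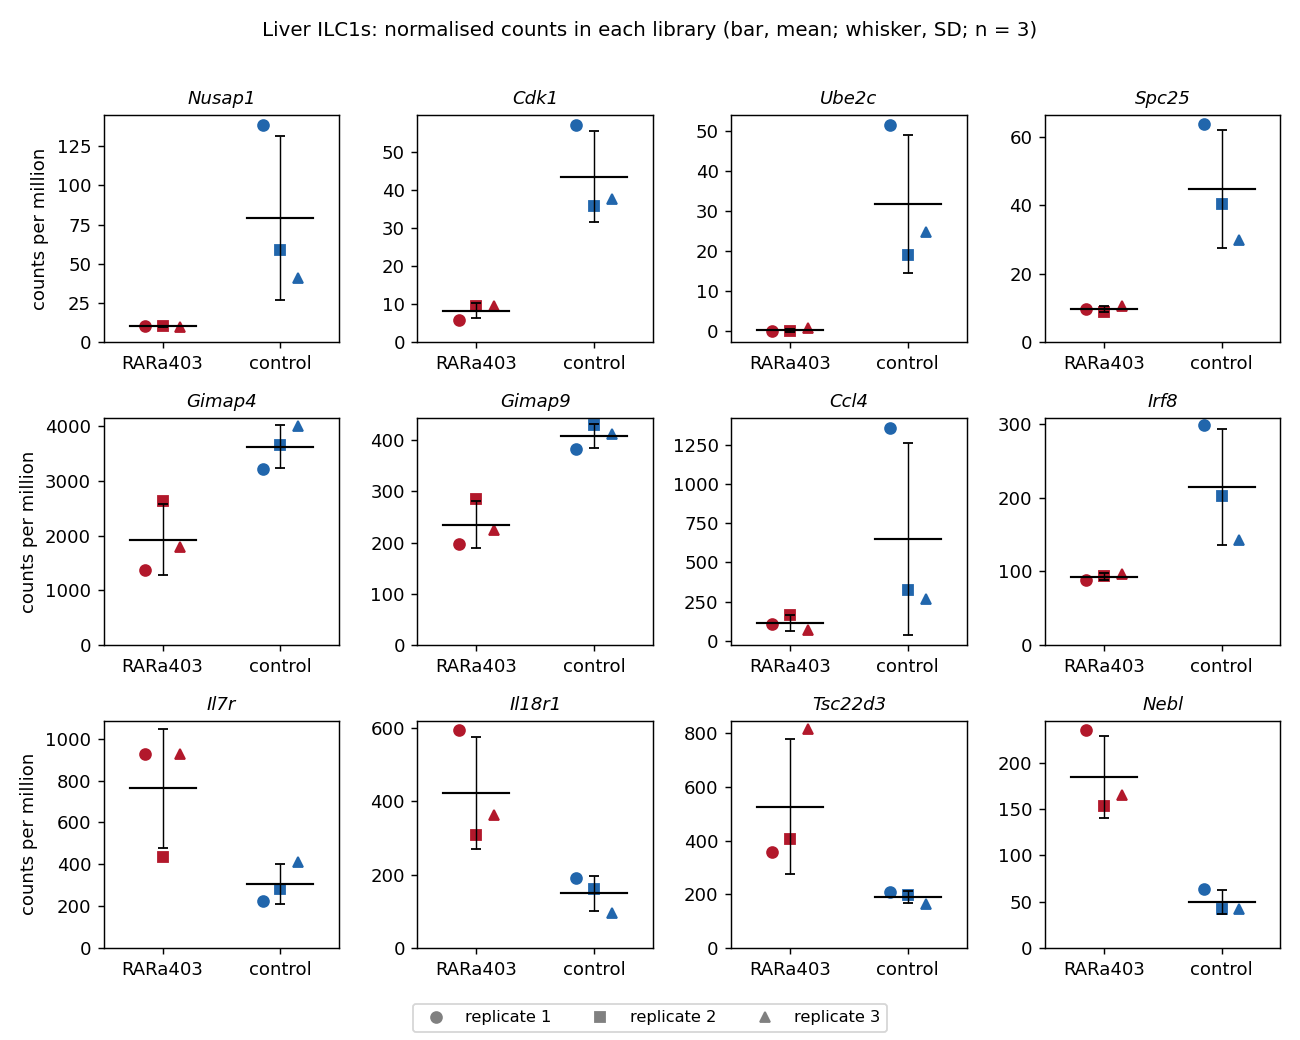
Levels of 12 named genes in each liver ILC1 library, in CPM, RARα403 left of control; symbols are libraries, bars are means and whiskers are SD (n = 3). The groups do not overlap in any panel: the 8 genes of the upper 2 rows lie lower in RARα403 libraries, and Il7r, Il18r1, Tsc22d3 and Nebl lie higher.

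Among the receptors of retinoic acid, Rara overlapped between the genotypes, while Rarg, Rarb and the partner Rxra had higher values in RARα403 cells without overlap. Rara, whose truncated form the mice carry, had 41.8, 45.8 and 53.0 CPM in RARα403 libraries and 46.9, 44.5 and 26.4 CPM in control libraries, with overlap (log2 fold change 0.25, SE 0.32). Rara counts therefore did not distinguish the genotypes, and whether reads of the transgene entered them is not known. Rarg, the gene of RARγ, had 45.6, 14.5 and 26.4 CPM in RARα403 libraries and 6.84, 14.4 and 12.4 CPM in control libraries, where the lowest RARα403 and the highest control value were nearly equal. Rxra, the gene of a retinoid X receptor, had 35.0, 24.2 and 27.7 CPM in RARα403 libraries and 7.55, 19.6 and 10.7 CPM in control libraries (log2 fold change 1.21, SE 0.48; edgeR adjusted p = 1.00). Rarb, the gene of RARβ and a classic target that retinoic acid induces through its own promoter, had 4.03, 2.60 and 10.1 CPM in RARα403 libraries and 0 in the control libraries, at least 8.50-fold higher. Its annotation overlaps Top2b, so reads of that gene may be counted with it, and this was not tested.

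The promoter of Rarb is shown because it holds the retinoic acid response element, marked in capitals, through which receptor pairs bind (RefSeq, GRCm38.p6, chr14:16575427-16575726, minus strand).
Rarb: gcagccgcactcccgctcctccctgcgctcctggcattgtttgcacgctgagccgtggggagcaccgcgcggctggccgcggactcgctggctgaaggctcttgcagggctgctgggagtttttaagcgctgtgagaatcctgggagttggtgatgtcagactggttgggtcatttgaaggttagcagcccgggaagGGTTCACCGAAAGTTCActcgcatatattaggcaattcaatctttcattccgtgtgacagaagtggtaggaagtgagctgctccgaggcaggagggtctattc
The element was searched on both strands as GGTTCA, 5 bases of any kind and AGTTCA. It begins 53 bases before the start and reads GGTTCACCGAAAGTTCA. It was found in 2 of 32851 promoters of that table (0.00609%) and in 0 of the 34 matched proliferation genes. The search was for the exact ends of the Rarb element, which are too rare for 0 of 34 to be informative. Looser forms of the element were not searched.

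Of 17 tested (21 listed) genes of retinoic acid receptors and their partners 12 lay above 0, with a median of 0.24 (0.34 without the library labelled RARα403 1, 0.12 without control library 1), and 3, Rarb, Rarg and Rxra, were higher without overlap (5.41% of all genes). Of 15 tested (29 listed) retinoic acid targets and genes of retinoid metabolism 7 lay above 0 and 8 below. Without overlap 2 were higher and 4 lower (5.41% and 4.88% of all genes). The 2 higher genes were Rarb and Rarg, which are in both lists. This second list had a median of -0.54. The median was -0.26 without the library labelled RARα403 1, -0.30 without control library 1 and -0.14 with libraries 2 and 3 only. Cyp26a1 and Cyp26b1, which degrade retinoic acid and are induced by it, did not pass the filter on low counts. Adh1, an alcohol dehydrogenase that oxidises retinol and is abundant in hepatocytes, had 3.55, 2.30 and 2.75 CPM in RARα403 libraries, against 139, 7.32 and 8.22 CPM in control libraries. Its highest value stood in control library 1, which also had the highest hepatocyte markers, and the part of those cells was not tested. Cd38, a NAD-consuming ectoenzyme, had 43.5, 220 and 171 CPM in RARα403 libraries, against 225, 278 and 368 CPM in control libraries. Ccr9, the receptor for gut homing that retinoic acid induces in T cells, had 0, 17.1 and 5.50 CPM in RARα403 libraries, against 20.5, 17.3 and 21.5 CPM in control libraries.

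Genes that mark ILC1s leaned slightly lower as a list, by an amount that depended on single libraries. Of 29 tested (30 listed) ILC1 genes 7 lay above 0 and 22 below, with a median of -0.15, and 1 was higher and 5 lower without overlap (5.41% and 4.88% of all genes). Without the library labelled RARα403 1 the median was -0.05 over 30 genes tested, with 4 higher and 5 lower (9.64% and 8.63% of all genes). Without RARα403 library 2 it was -0.46, with 2 higher and 12 of 29 lower (11.3% and 10.5% of all genes). Tbx21, which encodes T-bet, the factor that ILC1s need, had 828, 725 and 620 CPM in RARα403 libraries and 677, 907 and 832 CPM in control libraries (log2 fold change -0.15, SE 0.18). Cxcr6, a chemokine receptor that holds lymphocytes in liver, had 488, 1331 and 1334 CPM in RARα403 libraries and 1122, 1117 and 1232 CPM in control libraries. Only the library labelled RARα403 1 was low in it, and the log2 fold change of -0.14 turned to 0.21 without that library. Zfp683, which encodes the residency factor Hobit, had 39.3, 66.6 and 61.6 CPM in RARα403 libraries and 146, 44.8 and 242 CPM in control libraries, with overlap. Cd7 and Cd160, surface proteins of ILC1s and NK cells, were lower without overlap, with log2 fold changes of -0.71 and -0.52. The survival gene Bcl2 had 452, 1056 and 979 CPM in RARα403 libraries and 877, 479 and 942 CPM in control libraries, with overlap and a log2 fold change of 0.11. The sort markers Ncr1 and Itga1, the genes of NKp46 and CD49a, had log2 fold changes of 0.07 and -0.54 and overlapping groups, and the gate limits both.

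Genes of NK cell maturation and of tissue egress had higher medians in the full comparison, by an amount that depended on single libraries. The 23 tested (28 listed) NK cell maturation genes had a median of 0.80, against 0.05 without the library labelled RARα403 1. With all libraries 0 of them were higher and 1, Irf8, was lower without overlap (5.41% and 4.88% of all genes). Without that library 0 were higher and 2 lower (9.64% and 8.63% of all genes). The 13 egress and circulation genes had a median of 1.42, against 0.42 without that library. With all libraries 1 of the 13 was higher without overlap, also against 5.41% of all genes. The mean log2 CPM of the egress genes was 7.18, 4.96 and 6.55 in RARα403 libraries and 5.09, 5.83 and 4.54 in control libraries, so RARα403 libraries 1 and 3 lay above all controls and library 2 did not. Eomes, the T-box factor of NK cells, had 121, 22.5 and 64.9 CPM in RARα403 libraries and 7.26, 31.1 and 2.22 CPM in control libraries, with overlap (log2 fold change 2.39, and 1.72 without that library). S1pr1, a receptor with which lymphocytes leave tissue, had 234, 30.5 and 114 CPM in RARα403 libraries and 18.5, 78.8 and 22.2 CPM in control libraries. Klra8, an NK cell receptor of the Ly49 family whose members share reads, had 417, 63.7 and 0.290 CPM in RARα403 libraries and 0.285, 0 and 1.33 CPM in control libraries. RARα403 libraries 1 and 2 were thus high in Klra8 and library 3 was at its floor or below. The summed NK cell markers were 2216, 322 and 795 CPM in RARα403 libraries, against 159 to 398 CPM in control libraries. All 10 of these markers are members of the NK cell maturation list, and some are also egress genes. Their sum is therefore no separate measure, and the part of NK cells in the result was not tested. Without RARα403 library 2 the medians were 1.14 for NK cell maturation and 1.89 for egress, with 9 of 23 and 7 of 13 genes higher without overlap (11.3% of all genes), and without control library 2 the egress median was 2.28.

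With all libraries, the effector and general lists below had medians smaller in size than those of the proliferation, Gimap and cytokine lists. The 16 tested (21 listed) cytotoxic effector genes had a median of -0.12, with Tnfsf10, Fasl (the gene of the death ligand FasL) and Srgn (the granule proteoglycan serglycin) lower without overlap, 3 genes in all (4.88% of all genes). Gzmb, which encodes granzyme B, varied most, with 71.8, 946 and 270 CPM in RARα403 libraries and 1851, 591 and 1371 CPM in control libraries, and its groups overlapped. Of 30 activating and inhibitory receptors 24 lay below 0 and 3 were lower without overlap (Klri1, Cd160 and Lag3; 4.88% of all genes), with a median of -0.31. That median was -0.36 with 6 lower without the library labelled RARα403 1 (8.63% of all genes), -0.19 with 4 lower without control library 1 (9.42%) and -0.40 with 11 lower without control library 2 (10%). The 40 tested interferon response genes had a median of -0.35, 6 of them lower without overlap (4.88% of all genes). With a library left out this median ranged from -0.49 (without RARα403 library 3) to -0.05 (without control library 2). It was -0.13 without the library labelled RARα403 1. With libraries 2 and 3 of each genotype only it was -0.32. In that setting 12 of 40 genes were lower and 1 higher without overlap (15.1% and 16.2% of all genes). Ribosomal protein genes (81 tested) and nuclear subunits of oxidative phosphorylation (78 tested) had medians of -0.25 and -0.23, but 0.13 and 0.01 without control library 1. The median over lists of transcription factors and of survival genes lay at -0.01 and 0.10.

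**Figure D5:**
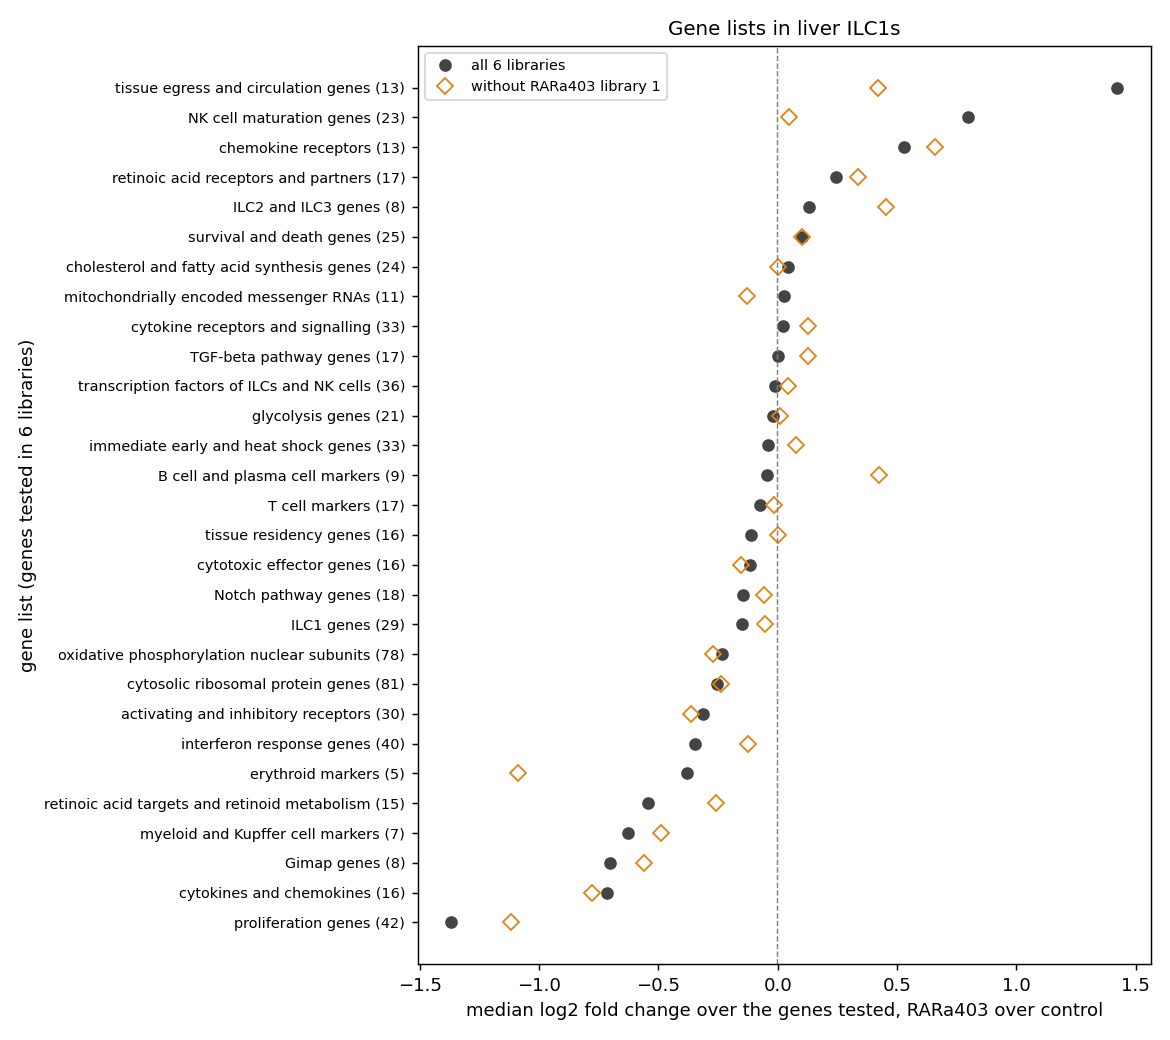
Median log2 fold change, RARα403 over control, of each gene list with at least 5 genes tested (number in brackets), with all 6 libraries as filled circles and without the library labelled RARα403 1 as open diamonds; lists with fewer tested genes vary more. Proliferation genes lie lowest at -1.37 and -1.12, whereas the egress and NK cell maturation lists move towards 0 when that library is left out.

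Leaving out the library labelled RARα403 1 gave 12646 tested genes, of which edgeR called 0 (3.88% had an unadjusted p under 0.05) and DESeq2 39 (0.308%). The smallest p then belonged to Gm13394 (log2 fold change 3.76, SE 0.32, edgeR adjusted p = 0.0548) and Gt(ROSA)26Sor (-9.76, edgeR adjusted p = 0.365). In both transcripts that library had differed from the others of its genotype, so leaving it out favoured them. Cap1, an actin-binding protein, had 219, 474 and 483 CPM in RARα403 libraries, against 183, 177 and 194 CPM in control libraries, and its log2 fold change was 1.38 without that library and 1.09 with it. Cited2, a transcriptional coregulator, had 80.3, 145 and 135 CPM in RARα403 libraries, against 45.9, 65.3 and 62.2 CPM in control libraries. Ube4a, a ubiquitin ligase, had 76.3, 101 and 99.4 CPM in RARα403 libraries, against 41.0, 56.0 and 48.4 CPM in control libraries. All 3 were lowest, among RARα403 libraries, in the library labelled RARα403 1. Serac1 was detected in RARα403 libraries 2 and 3 only, with 7.50 and 15.8 CPM. Ckap2, a spindle protein, had 11.8, 0 and 0 CPM in RARα403 libraries, against 44.4, 21.4 and 7.77 CPM in control libraries, and Plod2, a collagen-modifying enzyme, had 1.94, 0.153 and 0.145 CPM in RARα403 libraries, against 21.6, 5.57 and 9.11 CPM in control libraries.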

How the data were processed

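The submitters' processing notes name fastp 0.23.0, HISAT2 2.1.0, featureCounts with Subread 1.6.5, and the mm10 build. The authors deposited a table of whole-number counts per gene for 18 libraries. Which annotation was counted, whether strand was used and how multiply aligned reads were treated is not given in these sources. Of 46078 genes, 935 had no symbol (0.0578% of the counts).

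From these counts, genes were kept by filterByExpr with a minimum count of 10, libraries were scaled by TMM, and RARα403 was tested against control by edgeR 4.0.16's quasi-likelihood test in R 4.3.3 on the 6 liver ILC1 libraries (common biological coefficient of variation 0.550). P-values were adjusted by Benjamini-Hochberg over all genes tested. CPM are counts per 1000000 on the scaled library size. Coordinates come from GENCODE vM21 and promoters from RefSeq. The steps were tested on simulated data. DESeq2 1.42.0, limma 3.58.1, other scaling, no filter, a replicate block, a term for the opening number of the description code, a fold threshold and libraries left out were alternatives. Effects were compared between populations by interaction contrasts in a fit of 18 libraries.

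The members, the gene lists and the rule for naming genes were chosen with earlier results of these data known. The rule names, among genes whose higher group averaged 3 log2 CPM or more (prior count 2) and whose groups did not overlap, the 10 of smallest p in each direction, with and without the library labelled RARα403 1 and leaving out predicted genes, a set of receptor, sort marker and identity genes, and the 2 members of smallest p of each list. Other genes named were chosen after their values were seen. Not every gene given by the rule is reported here.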

Additional observations from a re-analysis of the deposited data

How the results depend on the processing

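In the comparison of 6 libraries 0 genes were called under the alternatives run, other than no filter on low counts, which gave 142 (116 of them also in the filtered set), and DESeq2, which gave 33. Without the library labelled RARα403 1 edgeR called 0, with 73 under no filter and 39 by DESeq2. For the difference in effect from spleen ILC1s no filter gave 41 and DESeq2 18, and from liver NK cells no filter gave 268 and DESeq2 43, with a range of 0 to 1 when a liver ILC1 library was left out. The cause was not tested. The labels do not say whether the replicate numbers pair the libraries. Correlations of deviations were 0.035, -0.066 and 0.025 between libraries of the same number and -0.078 to 0.066 between the others. With so few libraries these values can neither show nor exclude pairing. A fit with the replicate block called 0 genes.

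With libraries 2 and 3 only the medians of the egress, chemokine receptor and TGF-beta lists were 0.23, 0.080 and 0.18. With a library left out, the median ranged from 0.12 to 0.34 for retinoic acid receptors and partners and from -0.31 to -0.07 for cytotoxic genes. Of the genes given by the naming rule, 7 changed sign in some settings: Ncr1, Bcl2, Cxcr6, Alas2, Lyz2, Fabp1 and Hbb-bt. With a library left out Ncr1 ranged from -0.067 to 0.18, Bcl2 from -0.13 to 0.41, Cxcr6 from -0.35 to 0.21 and Alas2 from -0.41 to 10.94. Lyz2 ranged from -11.74 to 1.40, Fabp1 from -5.38 to 0.15 and Hbb-bt from -1.69 to 10.42. With libraries 2 and 3 only Cxcr6 was 0.18, Lyz2 1.99 and Fabp1 0.32. Hbb-bt was 1.24 with the replicate block, 2.94 with the description number and 2.45 by limma-voom. Outside the rule, Ifng, Mcm4, Mcm6, Mcm7 and H2afz changed sign without the library labelled RARα403 1. With 3 libraries a side and a floor of 0.427 to 0.879 CPM, small differences in genes near that floor cannot be shown at this depth.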
